A study of Mus musculus with 9 samples.

Results

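The mRNAs of 10 neuropeptide precursors were followed in the hippocampus of Angelman syndrome model mice after repeated audiogenic seizure tests. The genes were Npy, Sst, Vip, Cck, Penk, Pdyn, Tac1, Tac2, Crh and Adcyap1, taken by symbol as neuropeptide precursors, several of which are known to respond to seizures. They were chosen with earlier results of these data known. All 10 were among the 54532 genes of the deposited count table, and all 10 passed the filter on low counts that left 19782 genes. None of the 10 differed between Ant-134 and Scr treatment beyond the spread between mice, and Npy came nearest, at 42.0 against 37.9 CPM, which are counts scaled to the library total. The libraries nevertheless differed among themselves: a single Ant-134 library held the highest level of 8 of the 10 precursors, and the levels of Sst and Tac1 varied together from mouse to mouse.

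All 9 mice were N4 Ube3a m-/p+, which carry the Ube3a tm1alb deletion on the maternal allele with an intact paternal allele and come from an F1 line backcrossed onto 129Sv/Ev. At postnatal day 21 (P21) 5 mice received an intracerebroventricular injection of 0.5 nmol Ant-134, an antagomir (a chemically modified antisense oligonucleotide) against the microRNA miR-134, and 4 received 0.5 nmol of a scrambled oligonucleotide (Scr). Every mouse was exposed to the seizure-inducing sound at P22, P24 and P26, and the hippocampus on the injected side was collected 24 h after the last exposure, at P27. Each library is therefore 1 hippocampus of 1 mouse, and no untreated, unstimulated or wild-type mouse was part of the comparison, so a response to the seizures themselves cannot be read from these values.

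Neuropeptides are cut from larger precursor proteins, stored in dense-core granules and released mainly during high-frequency firing. In the hippocampus several of the genes studied here are transcribed in subsets of inhibitory interneurons: Sst and Npy largely in dendrite-targeting cells, Cck in basket cells that also carry cannabinoid receptors and at lower levels in pyramidal cells, and Vip in cells that inhibit other interneurons. Pdyn is a product of dentate granule cells, whereas Penk and Adcyap1 are found in scattered principal cells and interneurons. Seizures are known to change several of these mRNAs, with Npy, Penk and Tac2 rising in granule cells or mossy fibres in many rodent models.

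The libraries held between 28583298 and 41978113 counts, so that 3 counts, taken as the floor, corresponded to 0.0709 to 0.107 CPM. Markers of the labelled tissue were present in every library, with summed levels of 260 to 355 CPM for 5 dentate granule cell genes, 629 to 731 CPM for 5 CA1 pyramidal cell genes and 200 to 235 CPM for 5 CA3 pyramidal cell genes. The interneuron list of 15 genes summed to 1020 to 1182 CPM in the Ant-134 libraries and 1026 to 1203 CPM in the Scr libraries. Choroid plexus genes varied most, between 67.4 and 2564 CPM in Ant-134 and between 79.2 and 2024 CPM in Scr, and thalamus genes reached 130 CPM in Ant-134 replicate 3 against 71.4 to 89.6 CPM in the other 8 libraries. Ube3a mRNA was 90.2 ± 6.26 CPM (SD, n = 5) in Ant-134 and 92.4 ± 4.81 CPM (n = 4) in Scr. Because every mouse carried the deletion and reads were summed over the whole gene, these Ube3a values do not check the genotype. Y-linked genes averaged -2.87 and -1.66 log2 CPM in Ant-134 replicates 1 and 4 and -2.84 in Scr replicate 3. In all other libraries they averaged 5.21 to 5.38, so both groups appear to mix the sexes. The paper did not record the sex ratio for molecular work.

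Short stretches of promoter sequence are shown first because the cAMP response element, to which the activity-regulated factor CREB binds, was originally described in neuropeptide genes. Promoters were windows of 250 bases before to 50 bases after the RefSeq start on GRCm38.p6, and 8 of the 10 genes had one. The full palindrome TGACGTCA was searched on both strands, and so was its part TGACG with the reverse complement CGTCA, both of which lie inside the palindrome. The full motif was in 1 of the 8 genes, Sst, with its first base at position -48 from the start, against 2.03% of the 27025 genes with a promoter. TGACG or CGTCA was in 5 of the 8, against 23.0% of all genes with a promoter. The 120 bases before the start are given for those 5 genes, 5′ to 3′ on the strand of the gene, with the motif in capitals. The windows are chr16:23890845-23890964 on the minus strand for Sst, chr6:7554941-7555060 on the plus strand for Tac1, chr10:5639098-5639217 on the plus strand for Vip, chr17:93198897-93199016 on the plus strand for Adcyap1 and chr9:121495695-121495814 on the minus strand for Cck.
Sst: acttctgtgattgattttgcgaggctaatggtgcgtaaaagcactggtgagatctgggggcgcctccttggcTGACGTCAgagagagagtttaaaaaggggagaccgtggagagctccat
Tac1: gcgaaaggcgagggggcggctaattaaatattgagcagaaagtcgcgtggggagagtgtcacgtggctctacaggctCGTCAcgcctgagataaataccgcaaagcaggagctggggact
Vip: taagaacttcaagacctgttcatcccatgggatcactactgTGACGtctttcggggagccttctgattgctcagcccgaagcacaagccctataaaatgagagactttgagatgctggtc
Adcyap1: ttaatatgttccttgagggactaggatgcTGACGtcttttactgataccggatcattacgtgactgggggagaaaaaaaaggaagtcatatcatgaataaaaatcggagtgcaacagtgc
Cck: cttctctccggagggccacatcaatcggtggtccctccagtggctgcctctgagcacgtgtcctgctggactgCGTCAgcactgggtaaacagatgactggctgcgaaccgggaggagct
Another CGTCA lay at position -197 of Tac1, outside the stretch shown. The windows of Npy, Pdyn and Tac2 held none of these letters. A match of letters describes the sequence and does not show that a factor was bound.

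The injected oligonucleotide targets miR-134, so its mature sequence (mmu-miR-134-5p, RefSeq, chr12:109734145-109734166, plus strand) is given with the seed, bases 2 to 8, in capitals.
mmu-miR-134-5p: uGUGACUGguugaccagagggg
Neither 7-base match to this seed, CAGTCAC or AGTCACA, occurred in the longest annotated 3′ UTR of any of the 10 genes, which ranged from 156 bases in Sst to 2410 bases in Adcyap1. Among 21148 genes with an annotated 3′ UTR, 18.2% had such a match. Mature miR-134 itself was not measured in these poly-A-selected libraries.

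Compared per gene length, as FPKM (fragments per kilobase of gene, scaled to the library total), the precursors spanned a range from Cck to Crh. Cck averaged 267 ± 17.8 FPKM (SD over 9 libraries) and made up 43.8% of the summed level of the 10 genes. Sst followed with 243 ± 25.7 FPKM and 39.9% of the sum, and Npy with 70.3 ± 7.68 FPKM and 11.5%. These 3 genes together outweighed the other 7. Penk was next at 10.1 ± 1.92 FPKM, and its 9 values overlapped with those of neither Npy nor Vip. Vip was at 4.26 ± 0.475 FPKM, Adcyap1 at 4.10 ± 1.38, Pdyn at 3.22 ± 0.608, Tac2 at 3.16 ± 0.573, Tac1 at 2.35 ± 0.571 and Crh at 1.78 ± 0.492. From Vip downwards each gene overlapped in range with the next. Neither Vip, with a lowest value of 3.36 FPKM, nor Tac2, with a lowest value of 2.73 FPKM, overlapped with Crh, whose highest value was 2.54 FPKM. Cck and Sst also overlapped, although Cck was above Sst in 8 of the 9 libraries. Tac2 exceeded Tac1 in all 9 libraries.

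**Figure D1:**
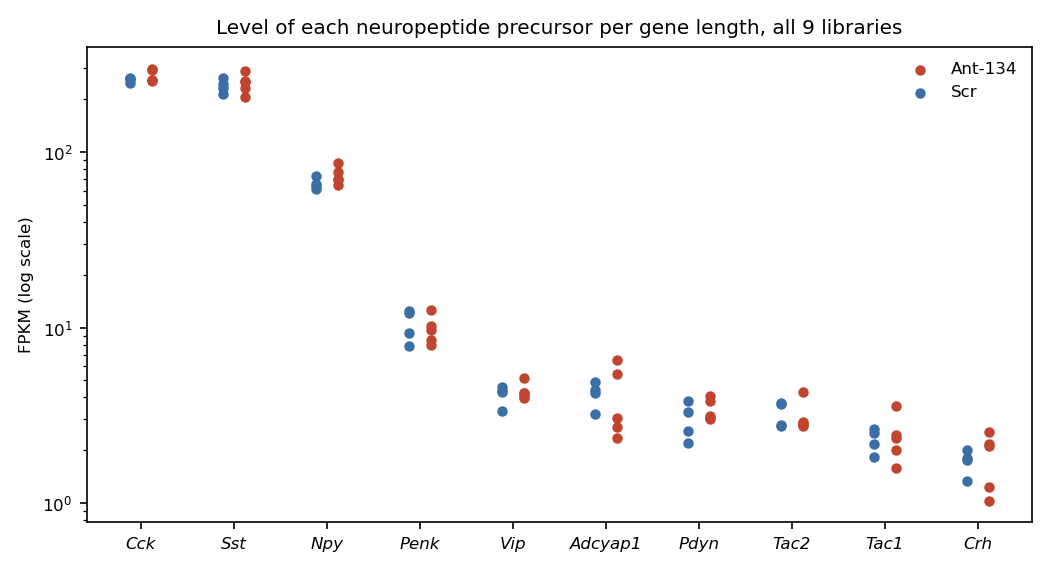
Level of each precursor in FPKM (vertical axis, log scale) in the 4 Scr (blue) and 5 Ant-134 (red) libraries, 1 point per library. Cck and Sst lie between 206 and 299 FPKM, Npy stands alone below them, and the genes from Vip to Crh overlap with their neighbours.

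The comparison of Ant-134 with Scr asks whether the treatment left the peptide mRNAs at another level 1 day after the last sound exposure. The paper reports less severe seizures with Ant-134 in this series of tests, and a tendency toward better survival. Treatment, seizure severity and survival to tissue collection cannot be told apart here. At the study's threshold, an unadjusted p below 0.05, edgeR's quasi-likelihood test called 0 of the 10 genes. An exact two-sided permutation test of log2 CPM over all 126 splits of the mice, whose smallest possible p is 0.00794, was run for each gene beside it. Of all 19782 genes 4.18% had an unadjusted edgeR p below 0.05, with 1.49% higher and 2.69% lower in Ant-134. A Benjamini-Hochberg adjusted p below 0.05 was found for 0%. The 10 log2 fold changes ran from -0.094 to 0.19 with a median of 0.067, against a median of 0.0026 over all genes tested. Of the 10 differences 7 were positive and 3 negative, where 51.2% were positive over all genes tested. Without Ant-134 replicate 5 the same genes had 4 positive and 6 negative differences and a median of -0.050. In 0 of the 10 genes did the groups fail to overlap, whereas 1.54% of all genes tested had every Ant-134 library above or below every Scr library. The adjusted p was 0.998 for each of the 10 genes in edgeR's test. The count of 0 depended on single mice: Npy was called without Ant-134 replicate 3 (log2 fold change 0.19, edgeR p of 0.0238) or without Scr replicate 4 (0.20, p of 0.0262), and Pdyn was called without Scr replicate 2 (0.35, p of 0.0328). Other mice moved the estimates the opposite way: without Ant-134 replicate 5 Npy was at 0.089 (edgeR p of 0.207), and without Scr replicate 3 Pdyn was at 0.074 (edgeR p of 0.608). In whole tissue, fewer cells of a type and less RNA per cell cannot be told apart.

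**Figure D2:**
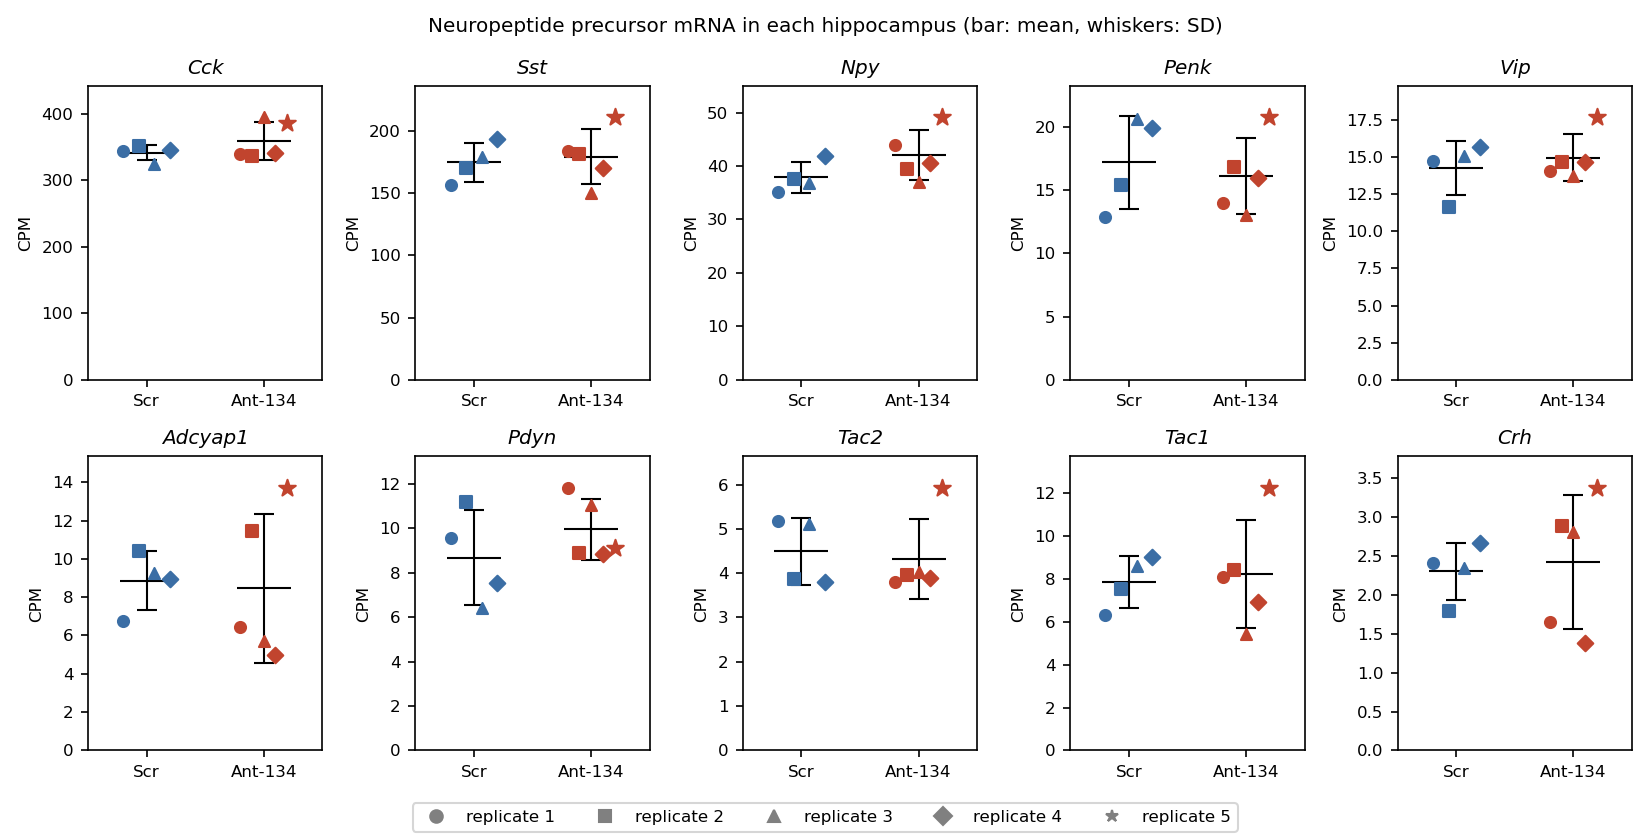
CPM of each precursor in every hippocampus, Scr in blue and Ant-134 in red, with the bar at the group mean, whiskers of 1 SD and the replicate number given by the symbol. The groups overlap in all 10 panels, and Ant-134 replicate 5 (star) is the highest point in 8 of them.

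**Figure D3:**
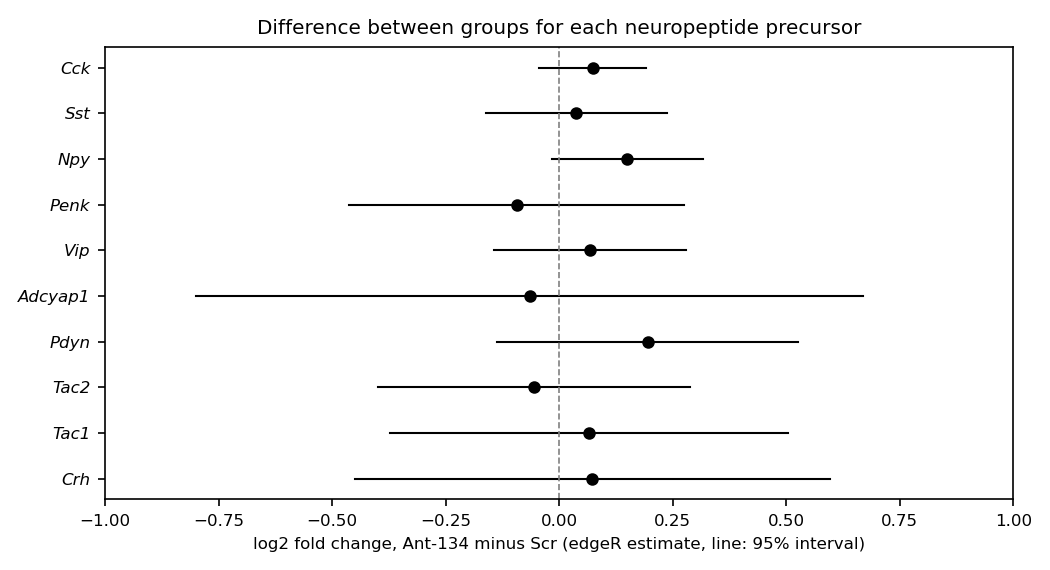
Log2 fold change of each precursor, Ant-134 minus Scr, as the edgeR estimate with its 95% interval. Every interval includes 0, and the widest is that of Adcyap1, from -0.80 to 0.67.

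Npy encodes neuropeptide Y, which dampens glutamate release and is widely studied as an endogenous anticonvulsant (ENSMUSG00000029819, chr6:49822710-49829507, plus strand). Its levels in Ant-134 replicates 1 to 5 were 43.9, 39.5, 37.1, 40.5 and 49.1 CPM, and in Scr replicates 1 to 4 they were 35.2, 37.6, 36.7 and 41.9 CPM. The highest 2 values were Ant-134 libraries and the lowest was an Scr library, with the other 6 intermixed. The log2 fold change was 0.15 (SE 0.078, 95% interval -0.016 to 0.32), with an edgeR p of 0.0729 and an exact permutation p = 0.167. That interval corresponds to a difference between -1.10% and 24.5%. Npy was also called, with the same fold change of 0.15, when edgeR was run without a filter on low counts (p of 0.0271).

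Sst encodes somatostatin, the peptide of dendrite-targeting interneurons (ENSMUSG00000004366, chr16:23889573-23890958, minus strand). The Ant-134 libraries held 184, 182, 150, 170 and 211 CPM and the Scr libraries 156, 170, 179 and 194 CPM, in replicate order. Both the highest and the lowest library belonged to the Ant-134 group. Ant-134 minus Scr was 0.038 on the log2 scale (SE 0.090, 95% interval -0.16 to 0.24), with an edgeR p of 0.680 and an exact permutation p = 0.754. The estimate was -0.026 without Ant-134 replicate 5.

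Vip encodes vasoactive intestinal peptide (ENSMUSG00000019772, chr10:5639218-5647617, plus strand). Its 5 Ant-134 values were 14.0, 14.6, 13.7, 14.6 and 17.6 CPM and its 4 Scr values 14.7, 11.6, 15.0 and 15.7 CPM. Apart from Ant-134 replicate 5 at the top and Scr replicate 2 at the bottom, the libraries lay close together. The log2 fold change of Vip was 0.068 (SE 0.099, 95% interval -0.14 to 0.28, edgeR p of 0.503, exact permutation p = 0.563).

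Cck encodes cholecystokinin, the most abundant precursor of the 10 (ENSMUSG00000032532, chr9:121489824-121495694, minus strand). It measured 339, 336, 394, 341 and 386 CPM in Ant-134 and 344, 352, 325 and 346 CPM in Scr. Ant-134 replicates 3 and 5 were above all other libraries, whereas the other 3 Ant-134 libraries lay within the Scr range. The difference was 0.073 on the log2 scale (SE 0.055, edgeR p of 0.205, exact permutation p = 0.317), and its 95% interval, from -0.045 to 0.19, was the narrowest of the 10. Without Ant-134 replicates 3 and 5 the difference was -0.013.

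Of the opioid precursors, neither was called. Penk encodes proenkephalin, the source of the enkephalins (ENSMUSG00000045573, chr4:4133531-4138819, minus strand), and measured 14.0, 16.8, 13.1, 15.95 and 20.7 CPM in Ant-134 against 12.8, 15.4, 20.6 and 19.95 CPM in Scr. The 3 highest libraries, Ant-134 replicate 5 and Scr replicates 3 and 4, were within 1 CPM of each other and came from both groups. Its log2 fold change was -0.094 (SE 0.17, 95% interval -0.46 to 0.28, edgeR p of 0.585, exact permutation p = 0.690). Pdyn encodes prodynorphin, whose dynorphins act on kappa receptors of granule cell inputs (ENSMUSG00000027400, chr2:129686565-129699844, minus strand). It measured 11.8, 8.91, 11.1, 8.84 and 9.13 CPM in Ant-134 and 9.59, 11.2, 6.39 and 7.53 CPM in Scr. The 2 lowest values were Scr replicates 3 and 4, the same libraries that were high for Penk. The log2 fold change of Pdyn was 0.19, the largest estimate of the 10, with an SE of 0.15 and a 95% interval from -0.14 to 0.53 (edgeR p of 0.228, exact permutation p = 0.317).

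Among the tachykinin precursors, Tac1 encodes substance P and neurokinin A (ENSMUSG00000061762, chr6:7554879-7565834, plus strand). Its levels were 8.07, 8.42, 5.45, 6.94 and 12.2 CPM in Ant-134 and 6.30, 7.52, 8.62 and 9.02 CPM in Scr. The Ant-134 libraries enclosed the whole Scr range, with a highest value 2.25 times the lowest. On the log2 scale the groups differed by 0.065 (SE 0.20, 95% interval -0.37 to 0.50, edgeR p of 0.750, exact permutation p = 0.921). Tac2 encodes neurokinin B (ENSMUSG00000025400, chr10:127724478-127731768, plus strand), and 4 of its Ant-134 libraries were nearly level at 3.81, 3.95, 4.02 and 3.90 CPM while replicate 5 stood at 5.92 CPM. The Scr libraries fell into 5.17 and 5.10 CPM for replicates 1 and 3 and 3.88 and 3.81 CPM for replicates 2 and 4. For Tac2 the log2 fold change was -0.055 (SE 0.16, 95% interval -0.40 to 0.29, edgeR p of 0.739, exact permutation p = 0.833).

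The precursors with the largest spread between mice were Crh and Adcyap1. Crh encodes corticotropin-releasing hormone (ENSMUSG00000049796, chr3:19693401-19695396, minus strand), which excites developing hippocampal neurons, and measured 1.65, 2.88, 2.81, 1.38 and 3.38 CPM in Ant-134 and 2.41, 1.797, 2.35 and 2.67 CPM in Scr. These levels rested on 42 to 111 counts, and both ends of the range were Ant-134 libraries. Crh differed by 0.073 on the log2 scale (SE 0.24, 95% interval -0.45 to 0.60, edgeR p of 0.769, exact permutation p = 1.00). Adcyap1 encodes PACAP (ENSMUSG00000024256, chr17:93199422-93205485, plus strand), a relative of Vip. It measured 6.43, 11.5, 5.73, 4.98 and 13.7 CPM in Ant-134 and 6.77, 10.4, 9.27 and 8.96 CPM in Scr. The Ant-134 libraries split into 3 below every Scr library and 2 above every one, which left a log2 fold change of -0.065 (SE 0.32, 95% interval -0.80 to 0.67, edgeR p of 0.844, exact permutation p = 0.635). A difference from -42.5% to 59.0% lies within that interval, so the test was least informative for this gene.

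The spread between mice was itself uneven among the precursors. Cck had the smallest within-group SD of log2 CPM, 0.091, at percentile 34.7 of the 16026 genes with a mean of at least 1 CPM. Adcyap1 had the largest, 0.51 at percentile 97.5, followed by Crh at 0.44 (percentile 95.9) and Tac1 at 0.35 (percentile 92.2). For Adcyap1 the coefficient of variation was 45.8% in Ant-134 and 17.2% in Scr, where counting error alone gives 5.82%. For Crh the same values were 35.6%, 15.9% and 11.2%, and for Tac1 30.7%, 15.5% and 6.07%. Whether the groups differ in spread was not tested.

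Ant-134 replicate 5 was the highest library for 8 of the 10 genes, all but Cck, where it came next to the top, and Pdyn, where it was at the median of the 9 libraries. Over all 16026 genes with a mean of at least 1 CPM the same library was highest for 17.4%. Its depth, 30139600 counts, was within the range of the others. Of the 13 activity genes 11 were also highest there, all but Ptgs2, at 17.8 CPM, and Nptx2, at 43.8 CPM, which lay within the range of the other libraries. The 13 summed to 692 CPM against 445 to 527 CPM in the other 8 libraries, and Fos was 31.0 CPM against 10.1 to 15.9 CPM. Fosb, another early gene of neuronal firing, was 13.8 CPM in that library and 4.36 to 6.52 CPM elsewhere. Of the 5 dentate granule cell genes 3 were highest in the same library, their sum being 355 CPM against 260 to 322 CPM elsewhere, and the CA1 sum was 731 CPM against 629 to 718 CPM, whereas the CA3 sum was the lowest at 200 CPM. The part of these genes in the peptide levels was not tested. Ant-134 replicate 3 lay at the other end for Sst and Tac1 and was the library with the most thalamus marker RNA, among them Prkcd at 66.2 CPM against 32.2 to 43.4 CPM elsewhere, and the part of that in the low values was not tested either. With both libraries left out together, 0 of the 10 genes were called.

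**Figure D4:**
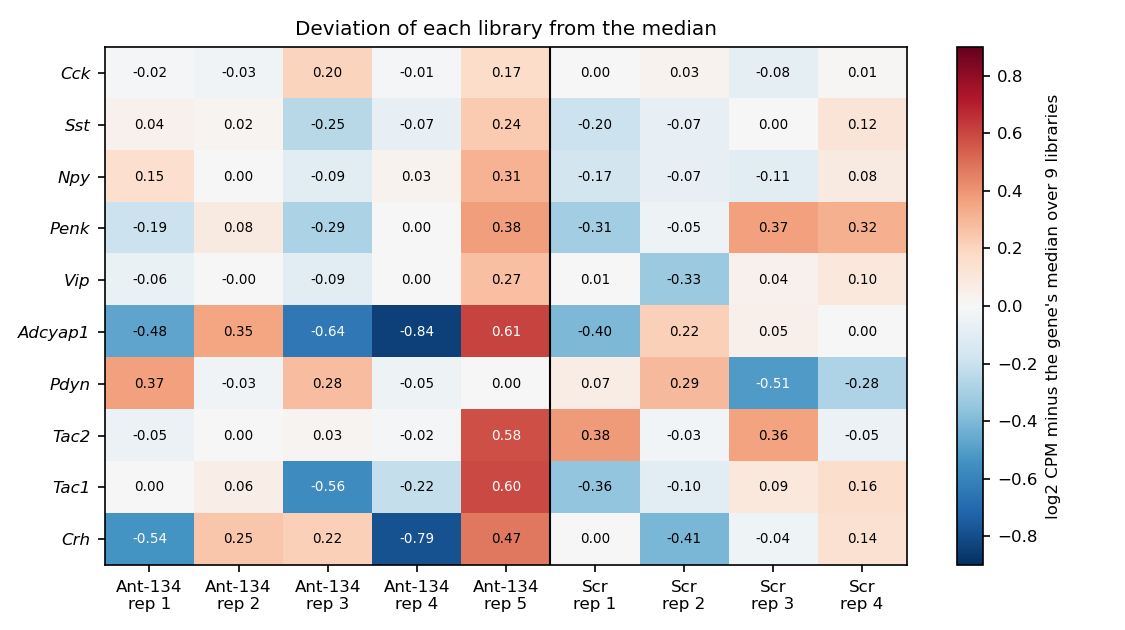
Log2 CPM of each precursor (down) in each library (across) minus the median of that gene over the 9 libraries, red for higher and blue for lower. The column of Ant-134 replicate 5 is red for 9 of the 10 genes, reaching 0.61 for Adcyap1, and Pdyn is at 0.00 there.

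Of the 45 pairs among the 10 genes, 35 had a positive Pearson correlation of log2 CPM over the 9 mice, and 1 pair passed Benjamini-Hochberg adjustment over the 45. That pair was Sst and Tac1, with r = 0.97 (exact permutation test, two-sided, p = 3.31e-05, adjusted p = 0.00149) and Spearman's rho = 0.92 (exact permutation p = 0.00131, adjusted p = 0.0456). The points run from 150 CPM of Sst with 5.45 CPM of Tac1 in Ant-134 replicate 3 to 211 CPM with 12.2 CPM in Ant-134 replicate 5, and the 4 Scr libraries lie along the same line. Within groups, as deviations from each group mean, r was 0.98. The libraries farthest from the median of Sst are the same Ant-134 replicates 3 and 5, and without them r was 0.94 over 7 mice (exact permutation p = 0.00238, adjusted p = 0.107). Interneuron markers also differed between these libraries: of the 15 genes, 6 were lowest in replicate 3 of Ant-134 and 5 were highest in its replicate 5, where 12.8% and 17.4% of the 16026 genes were. Pvalb and Lamp5 went the other way and were highest in replicate 3, at 42.7 against 37.7 CPM and 29.7 against 27.8 CPM in replicate 5. The sum of the list was 1020 CPM in replicate 3 and 1182 CPM in replicate 5. The part of interneuron content in the correlation was not tested.

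Penk and Tac1 passed adjustment by rank, with rho = 0.90 (exact permutation p = 0.00203, adjusted p = 0.0456), but not by Pearson's r = 0.83 (exact permutation p = 0.00273, adjusted p = 0.0614). Without the 2 libraries farthest from the median of Penk r was 0.79 (exact permutation p = 0.0310, adjusted p = 0.386). The most negative pair was Penk and Pdyn, the opioid precursors, with r = -0.76 (exact permutation adjusted p = 0.104), which did not pass adjustment. In all, 8 of the 45 pairs had an unadjusted exact permutation p below 0.05. All pairs share the same 9 libraries and their scaling.

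**Figure D5:**
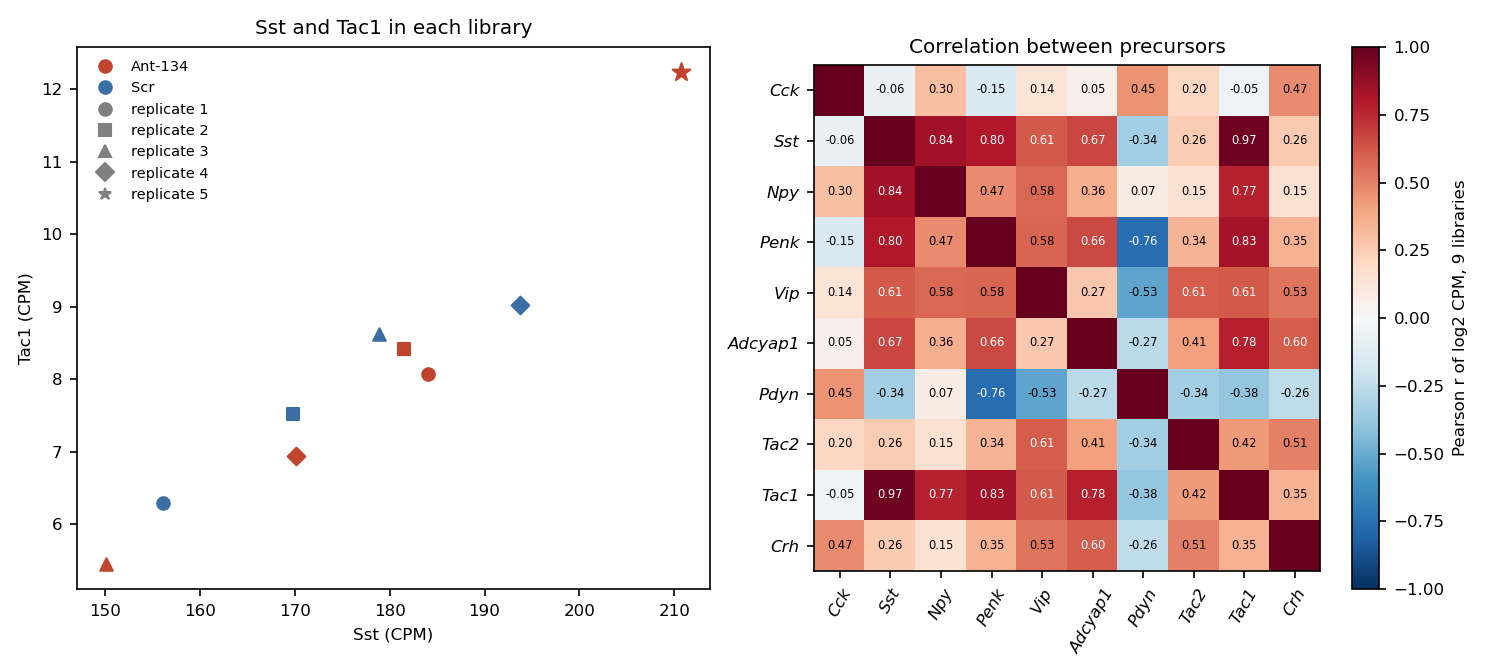
Left, Tac1 against Sst in CPM for each library, red for Ant-134 and blue for Scr. Right, Pearson r of log2 CPM over 9 libraries for each pair of precursors; Sst and Tac1 reach 0.97, and Pdyn is blue against most other genes with -0.76 against Penk.

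The genes most like each precursor were sought among the same 16026 genes by Pearson r of log2 CPM deviations from the group means over the 9 libraries. Tac1 was the second most similar gene to Sst (r = 0.98, after March9, also 0.98), and Sst was the most similar to Tac1. For the other precursors the closest gene was Mrpl51 for Npy (0.98), Brd3os for Vip (0.95), Dda1 for Cck (0.94), Rtl5 for Penk (0.99), Msrb2 for Pdyn (0.98), Foxm1 for Tac2 (0.96), Ercc2 for Crh (0.98) and Eya2 for Adcyap1 (0.97). A search of this size over 9 libraries finds high values for any gene, and these are given as a description.

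Receptors, processing enzymes and other peptide precursors were examined from lists of the same pathway. The calls in these and the following lists stand beside the 4.18% of all genes tested that were called. Of the 21 receptor genes 20 were tested, 1 was called higher and 0 lower, and their median log2 fold change was 0.070. Leaving out single libraries moved this median between 0.0083 (without Scr replicate 1) and 0.12 (without Ant-134 replicate 3). The called gene was Npy1r, the postsynaptic Y1 receptor for neuropeptide Y, at 26.6 ± 1.83 CPM (SD, n = 5) in Ant-134 and 24.0 ± 1.62 CPM (n = 4) in Scr, with a log2 fold change of 0.15 (SE 0.067, edgeR p of 0.0460, adjusted p = 0.998). That call was lost when any of Ant-134 replicates 2, 4 and 5 or Scr replicates 2, 3 and 4 was left out. The most abundant receptor per length was Adcyap1r1, the PACAP receptor, at 28.4 FPKM.

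All 17 genes for precursor cleavage, granules and peptide degradation were tested and 0 were called, with a median log2 fold change of 0.036, which was 0.0063 without Ant-134 replicate 5 and 0.078 without Scr replicate 4. The smallest p was that of Cadps2, a granule release factor, with a log2 fold change of 0.11 (edgeR p of 0.119). Cpe, carboxypeptidase E, was the most abundant of them at 1085 FPKM.

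The list of 17 other precursors also holds Bdnf, which encodes a neurotrophin and not a neuropeptide. Of the 17 genes 14 were tested, 0 were called higher and 1 lower, and the median log2 fold change was -0.014. That median was -0.14 without Ant-134 replicate 5 and 0.094 without Scr replicate 2. The called gene was Sct, the secretin precursor, with 1, 7, 3, 1 and 3 counts in the Ant-134 libraries and 15, 32, 14 and 15 counts in the Scr libraries (edgeR p of 8.45e-05, adjusted p = 0.452). Every Ant-134 library was below every Scr library, and 1.54% of all genes tested had such a separation in either direction. Of the 5 Ant-134 libraries 4 were at or under the floor of 3 counts, so no fold change is given. Sct passed the filter on low counts through its Scr libraries alone. Its p and its separation cannot be told apart from that selection, so no conclusion is drawn from them. Trh, Cartpt and Cort, precursors of thyrotropin-releasing hormone, CART and cortistatin, were chosen after their values were seen. Trh was 6.85 CPM in Ant-134 replicate 5 and 0.164 to 1.70 CPM in the other 8 libraries. Cartpt was 5.23 CPM there and 0.688 to 1.97 CPM elsewhere, and Cort was 5.89 CPM there and 1.92 to 4.49 CPM elsewhere. Of the 14 genes tested, 6 were highest in Ant-134 replicate 5, and Trh, Cartpt and Cort were picked from these for that pattern.

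Over all genes tested 4.18% were called and 51.2% of the differences were positive. Among the activity genes 0 of 13 were called, with 12 positive differences and a median log2 fold change of 0.15. Without Ant-134 replicate 5, which was highest for 11 of them, 6 differences were positive and 7 negative, with a median of -0.0018. With all libraries the smallest p was that of Ptgs2, inducible cyclooxygenase (log2 fold change 0.22, edgeR p of 0.0521). Of the 15 interneuron markers 0 were called, with a median of 0.025, and Lamp5, a marker of neurogliaform cells, had the smallest p (0.18, edgeR p of 0.0978). The interneuron median was negative without Ant-134 replicate 2, Ant-134 replicate 4 or Scr replicate 2, where it was lowest at -0.021, and reached 0.066 without Scr replicate 4. Of the subfield markers 1 was called, Dsp of the dentate granule cell list, at 0.18 (edgeR p of 0.0230), and 0 of the 5 CA1 and 0 of the 5 CA3 genes. The Dsp call was lost without any of Ant-134 replicate 3 and Scr replicates 1 and 4.

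Regions next to the hippocampus express several of these peptides strongly, so their markers were examined in the same libraries. Of 6 striatal genes 0 were called, and their sum was 54.4 to 74.5 CPM in Ant-134 and 60.5 to 78.9 CPM in Scr. Of 4 isocortical genes 0 were called, with sums of 85.7 to 103 CPM and 92.3 to 106 CPM. The 5 hypothalamic genes summed to at most 3.54 CPM, and only 2 of them were tested. Of the habenula genes 4 were tested and Chrna3 was called lower (log2 fold change -0.46, edgeR p of 0.0345), and of the 5 thalamic genes Lef1 was called higher (0.44, edgeR p of 0.0338). Neither passed adjustment. The Lef1 call was lost without any of Ant-134 replicates 3 and 4 and Scr replicates 1 and 4, and Ant-134 replicate 3 was the highest library for all 5 thalamic genes. The Chrna3 call was lost without any of Ant-134 replicates 4 and 5 and Scr replicates 1 and 3. No choroid plexus gene was called although that list varied most between libraries. How much of each peptide mRNA came from such neighbouring tissue was not tested.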

How the data were processed

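RNA of 1 hippocampus per mouse was poly-A selected and sequenced by the authors, who mapped reads to GRCm38 (mm10) with HISAT2 2.0.5 and counted them per gene with featureCounts 1.5.0-p3, as the submitters' processing notes list. The deposited counts are not normalized. The deposited FPKM values were scaled by the authors to gene length and library total. Whether counting used strand is not given in the sources used here.

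The main test was run in edgeR 4.0.16 (R 4.3.3; filterByExpr with a minimum count of 10, TMM scaling, robust quasi-likelihood test of 5 Ant-134 against 4 Scr, no covariate, Benjamini-Hochberg adjustment over 19782 genes). Called means an unadjusted p below 0.05. CPM use TMM-scaled totals. Intervals are 95%, from the SE and the moderated degrees of freedom. PCR duplicates cannot be told apart, so the floor of 3 counts reflects counting error alone. Libraries of the same group all differed by more than counting noise (chi-square per gene 7.56 to 19.0). Alternatives were DESeq2 1.42.0, limma 3.58.1 on log2 FPKM with a pseudocount of 1 or 0.1, other filters, a replicate block, Y-linked gene levels as a covariate, an exact permutation test of log2 CPM and leaving out libraries. The script was tested on simulated data.

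The members and lists were chosen with earlier results of these data known. Named genes are the 10 precursors, list genes with an unadjusted p below 0.05 or otherwise the smallest p, the most abundant gene of a list and, for each precursor, up to 2 genes with the most similar deviations. Ube3a, the deleted gene, Bdnf, named to describe its list, and Fos, Fosb, Nptx2, Trh, Cartpt and Cort lie outside this rule. All but Ube3a and Bdnf were chosen after their values were seen. Promoters and the mature miRNA are from RefSeq on GRCm38.p6, and 3′ UTRs from GENCODE M21, which gives 9 of the 10 positions as deposited and chr17:93199017-93206537 for Adcyap1.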

Additional observations from a re-analysis of the deposited data

Results flagged for a closer look

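In groups of 4 or 5 mice, the gap between the most extreme library and the next was compared with the range of the group (Dixon's 95% criterion). Of 48 groups of values 8 passed, where 1 in 20 of them is 2.4. All groups of values come from the same libraries, and the criterion assumes normally distributed values. An excess over chance can therefore not be read from these counts. Ant-134 replicate 5 stood apart for Vip, at 17.6 CPM against 13.7 to 14.6 CPM in the other Ant-134 libraries, and for Tac2, at 5.92 CPM against 3.81 to 4.02 CPM. The same library stood apart for the sum of the other precursor list, which includes Bdnf, at 120.1 CPM against 93.2 to 99.5 CPM. It also stood apart for the summed activity genes, at 692 CPM against 489 to 526 CPM. Ant-134 replicate 3 stood apart for thalamus markers, at 130.2 CPM against 71.4 to 83.6 CPM, and Ant-134 replicate 1 for choroid plexus markers, at 2564 CPM against 67.4 to 677 CPM. In the Scr group replicate 1 was lowest for the summed other precursors, at 91.5 CPM against 102 to 104 CPM, and replicate 2 was lowest for habenula markers, at 34.7 CPM against 36.5 to 36.7 CPM.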

How the results depend on the processing

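The order of levels by FPKM was unchanged on the TPM scale, with 0 genes at another place, and 0 of the 10 precursors were called in every alternative with all 9 libraries other than the fit without a filter, which called 1 (Npy, log2 fold change 0.15). The sample titles do not say that equal replicate numbers pair the mice. Same-numbered libraries had correlations of -0.20, -0.050, -0.091 and 0.089, which cannot settle this. The paper calls the Scr mice littermates, but litters are not labelled. With the replicate block, which has no partner for Ant-134 replicate 5, the fold changes of Sst (-0.026), Tac1 (-0.12) and Crh (-0.11) turned negative. Adcyap1 was then at -0.36 (edgeR p of 0.0672), and Penk and Tac2 were at -0.18. With this block 2 genes passed adjustment, and calls were 1 processing gene, 2 other precursors, 1 interneuron marker, 1 neighbouring region marker, 1 activity gene and 2 subfield markers. By limma on log2 FPKM with a pseudocount of 0.1, Crh was at 0.0069 and Adcyap1 at -0.16.

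In place of 294 higher, 533 lower and 0 adjusted calls, edgeR without a filter gave 564, 1211 and 14, and 3 other precursors, 1 interneuron marker and 1 activity gene, and DESeq2, also without a filter, gave 16 adjusted calls, 2 other precursors and 1 activity gene. DESeq2's size factors gave 1 activity gene, the test without robust estimation 2 subfield markers, and at least 10 counts in every sample 0 other precursors, since Sct was then not tested. On FPKM, limma called 450 genes higher with a pseudocount of 1, 471 with 0.1, and 579 higher and 931 lower without a filter, with 0 neighbouring region markers each time against 2. The Y-linked covariate called 0 of the 10 precursors.

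Without the 2 libraries farthest from the median 0 pairs of precursors passed adjustment and the Sst and Tac1 correlation was 0.94, and with Spearman's rho 2 pairs passed. The covariate, the exact permutation test (0 of the 10 with a p below 0.05) and the following pairs of left-out libraries were added after the data were seen. Without Ant-134 replicates 3 and 5 Cck (-0.013), Tac1 (-0.010) and Crh (-0.21) turned negative, 1 neighbouring region marker and 1 activity gene were called, and the Sst and Tac1 correlation was 0.94 with 0 pairs past adjustment. Without Ant-134 replicate 1 and Scr replicate 3 Penk (0.052), Tac2 (0.056) and Adcyap1 (0.042) turned positive, Pdyn was at 0.0027, 186 genes were called higher, 18 passed adjustment, and 2 receptors and 1 neighbouring region marker were called. The cause was not tested.

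Leaving out each library in turn gave 194 to 386 genes higher, 435 to 704 lower and 0 to 17 past adjustment, and called 0 to 1 of the 10 precursors, 0 to 2 receptors, 0 to 1 processing genes, 1 to 2 other precursors, 0 to 1 interneuron markers, 0 to 3 neighbouring region markers, 0 to 1 activity genes and 0 to 2 subfield markers. Fold changes on the log2 scale then ran from 0.089 to 0.20 for Npy, -0.026 to 0.095 for Sst, -0.020 to 0.12 for Vip, 0.037 to 0.096 for Cck, -0.21 to 0.0041 for Penk, 0.074 to 0.35 for Pdyn, -0.12 to 0.18 for Tac1, -0.19 to 0.015 for Tac2, -0.074 to 0.22 for Crh and -0.30 to 0.074 for Adcyap1. Depth limits Crh most, with 42 to 111 counts.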
